A study of Mus musculus with 6 samples.

Results

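To describe the skeletal muscle RNA carried by sham-operated sciatic nerves, 42 genes of the muscle sarcomere and of muscle excitation were taken by symbol from 54309 genes quantified, covering 266 of 140789 annotated transcripts. TPM and estimated reads were summed over the transcripts of each gene. Left sciatic nerve, which the labels give as whole and the study's methods as proximal segments, came from C57BL/6 mice, female and male, 6 to 8 weeks old, taken 24 h after a sham operation in which the nerve was exposed at mid-thigh and left intact, the overlying muscle was sutured and the skin was stapled. All animals of both sexes carried this surgery. No transgene was used, and each library pooled nerves of 2 mice, so that single animals cannot be seen. The 3 female pools are called F1, F2 and F3, and the 3 male pools M1, M2 and M3. Each held 55949876 to 78473057 estimated reads.

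Skeletal muscle contracts when an action potential reaches the transverse tubules, where the voltage sensor (*Cacna1s*) opens the calcium release channel of the sarcoplasmic reticulum (*Ryr1*). Calcium binds troponin on the thin actin filament and lets myosin of the thick filament pull. Fast and slow fibres build the same machine from paralogous genes: slow (type I) fibres use *Myh7* as heavy chain, whereas type IIa, IIx and IIb fibres use *Myh2*, *Myh1* and *Myh4*. The nerve itself is made of axons, Schwann cells, connective tissue and vessels, and holds no striated fibres. The genes were therefore divided by role into thick filament (13), thin filament (9), Z-disc and M-band (10), energy, oxygen and calcium buffering (4) and excitation-contraction coupling (6). By fibre type, 15 were assigned to fast fibres, 7 to slow fibres, 2 to developing muscle and 18 to both kinds of fibre.

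The pools differed in the amount and in the kind of muscle RNA. Summed TPM of the 42 genes was 95.9 in F1, 4524 in F2, 147 in F3, 461 in M1, 169 in M2 and 141 in M3, which put F2 far above every other pool and M1 second. These genes took 0.631% of all estimated reads in F2 and 0.0104% to 0.0571% in the other 5 pools. The 15 fast genes summed to 3132 TPM in F2, against 41.1 to 172.7 TPM in the other pools. The 7 slow genes did not follow: they summed to 36.9 TPM in F2 and 96.3 TPM in M1, and to 35.9 to 46.4 TPM in the other 4 pools. Of the slow sums, *Casq2* alone gave 21.5 to 27.2 TPM in every pool. *Casq1* likewise gave 21.5 to 23.9 TPM of the fast sums outside F2. Both levels were nearly constant over those pools, so the low sums cannot be read as amounts of slow or fast fibre. A lower level in bulk RNA can come from fewer fibres or from less RNA per fibre, which cannot be told apart here. The genes were chosen knowing that F2 stands apart, so its levels are a description without a test.

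Of the 42 genes, 30 were highest in F2, 11 in M1 and 1 (*Casq2*) in F1, while 24 were lowest in F1. In F2, 29 of 42 lay at least 10-fold above the median of the other 5 pools (28 of the 36 that passed the filter on low counts, where 0.349% of the 16310 genes kept did so). All 7 slow genes lay below that median. In M1, 11 of 42 lay at least 10-fold above the median of the 4 pools other than F2 (7 of the 36 that passed, where 0.0613% of all genes did so). These were *Acta1*, *Actn2*, *Ckmt2*, *Mb*, *Mybpc1*, *Myh1*, *Myh2*, *Myh7*, *Myl2*, *Myl3* and *Tcap*, and 12 of 42 genes were higher in M1 than in F2. *Actn2*, *Mb*, *Mybpc1*, *Myh1*, *Myh7* and *Tcap* reached the filter's 0.5 CPM in only 3 pools, M1 among them. Without M1, where they were high, they would not have passed. *Actn2*, *Mb*, *Mybpc1*, *Myh1*, *Mylk2*, *Tcap* and *Trdn* likewise passed only through F2. The counts among genes that passed are therefore a description and no support.

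**Figure D1:**
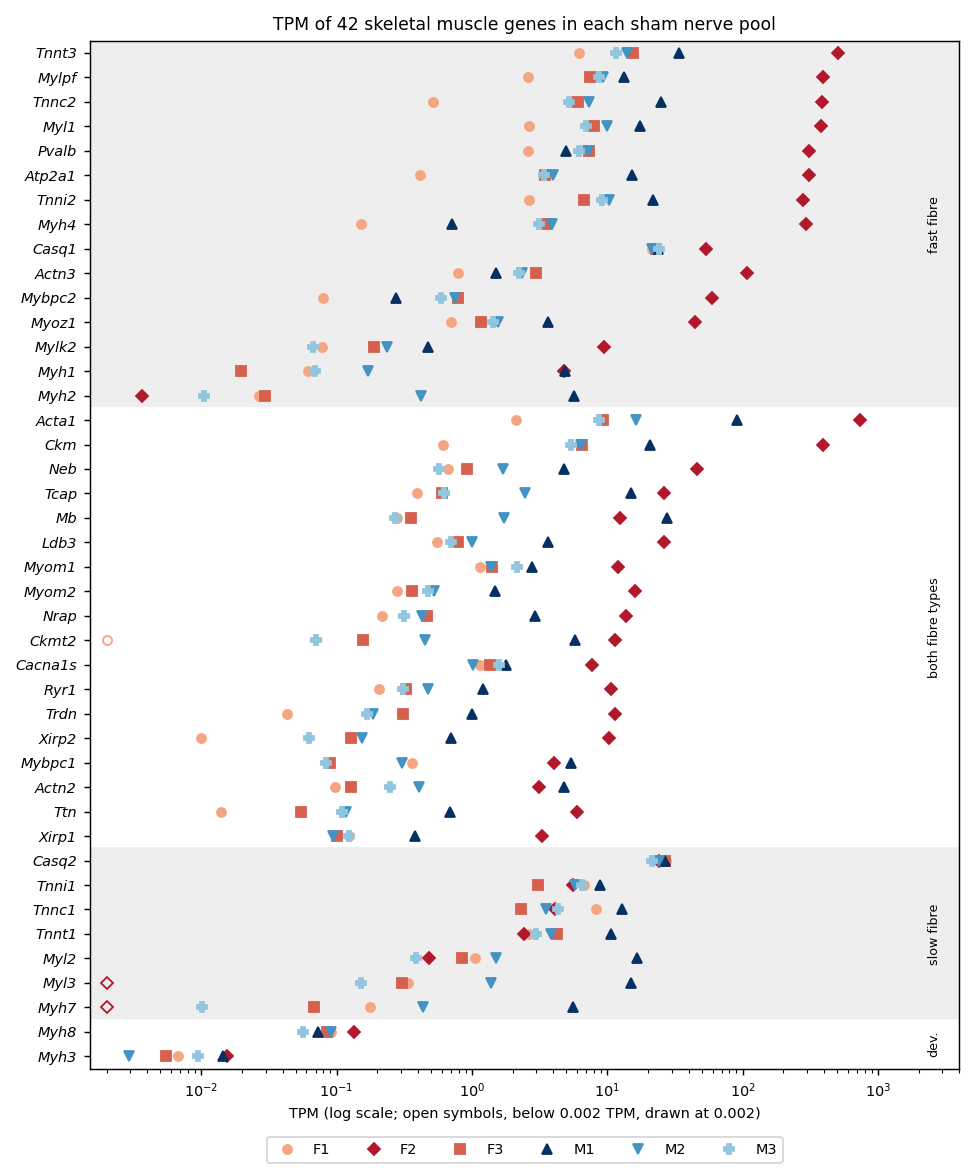
TPM (log scale) of each of the 42 genes in the 3 female (F) and 3 male (M) pools, 1 symbol per pool, grouped by fibre type (dev., developing muscle). F2 (diamonds) lies to the right for most fast and shared genes but not for the 7 slow genes, of which 6 were highest in M1 (dark triangles).

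The heavy chains, the motors of the thick filament, told the pools apart most clearly. *Myh4*, the type IIb heavy chain, had 0.151 TPM in F1, 295 in F2, 3.61 in F3, 0.707 in M1, 3.92 in M2 and 3.11 in M3. *Myh7*, the slow heavy chain also used in heart, had 0.176 TPM in F1, 0 in F2, 0.0678 in F3, 5.57 in M1, 0.439 in M2 and 0.0101 in M3. F2 was thus highest for *Myh4* and without a read for *Myh7*, and M1 was highest for *Myh7* and, after F1, lowest for *Myh4*. With 0 reads in F2, where 3 reads would be 0.0136 TPM, *Myh7* was at least 410-fold higher in M1. *Myh2*, the type IIa heavy chain, had 0.0265 TPM in F1, 0.00366 in F2 (1 read), 0.0296 in F3, 5.69 in M1 (2423 reads), 0.421 in M2 and 0.0104 in M3. *Myh1*, the type IIx heavy chain, had 0.062 TPM in F1, 4.76 in F2, 0.0197 in F3, 4.88 in M1, 0.17 in M2 and 0.0693 in M3, and so was nearly equal in F2 and M1. The embryonic and perinatal chains *Myh3* and *Myh8* stayed at or below 0.134 TPM in every pool.

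As shares of heavy chain TPM, F2 was 98.4% *Myh4* and 1.59% *Myh1*, whereas M1 held 33.6% *Myh2*, 32.9% *Myh7*, 28.8% *Myh1* and 4.18% *Myh4*. *Myh4* also made up 94.6% in F3, 77.7% in M2 and 95.2% in M3. M2 had the next highest shares of *Myh7* (8.70%) and *Myh2* (8.35%) among the pools with over 1000 heavy chain reads. In F1 all 6 heavy chains together had only 140 reads, and no chain passed 34.4%. The fast chains (*Myh1*, *Myh2* and *Myh4*) held 46.6% in F1, 99.95% in F2, 95.8% in F3, 66.6% in M1, 89.4% in M2 and 97.7% in M3. The Wilson 95% interval of the same share of reads, which covers counting error only, ran from 41.8% to 58.2% in F1, from 99.95% to 99.98% in F2, from 95.7% to 97.6% in F3, from 65.2% to 67.4% in M1, from 88.7% to 91.5% in M2 and from 97.6% to 99.1% in M3. M1 and M2 thus lay below F2, F3 and M3 beyond counting error. F1 lay below all other pools beyond counting error as well, but with 140 reads it was too shallow to place closely. Over pools, the fast share was 80.8% ± 29.7 in female and 84.6% ± 16.1 in male nerves (SD, n = 3 each), so the sexes overlapped. The heavy chain genes are similar in sequence and the estimates divide shared reads among them, so that shares of a few reads are uncertain.

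**Figure D2:**
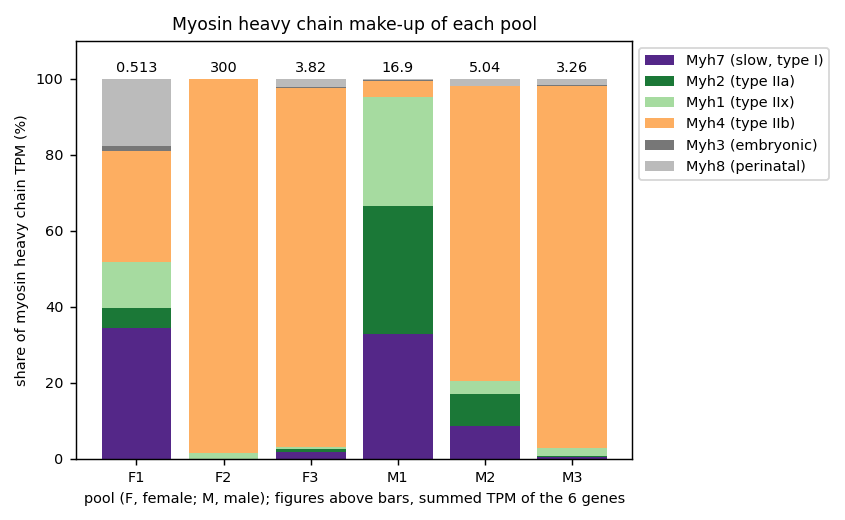
Share (%) of myosin heavy chain TPM taken by each of 6 heavy chain genes, 1 bar per pool (F, female; M, male), with the summed TPM above each bar. F2, F3 and M3 are almost wholly *Myh4*, and M1 is divided among *Myh7*, *Myh2* and *Myh1*.

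The 250 bases before the annotated starts of *Myh2* and *Myh7*, the chains that set M1 apart, and of *Acta1*, which was high in both F2 and M1, are shown 5′ to 3′ on the strand of each gene (GRCm39). Capitals mark matches, on either strand, to the searched motifs TATAAA, the E-box CANNTG, its form CAGCTG, the TEAD-type motif CATTCC, the CArG box bound by serum response factor and the site of the MEF2 factors, which are background for muscle transcription.
*Myh2*, chr11:67061588-67061837, plus strand: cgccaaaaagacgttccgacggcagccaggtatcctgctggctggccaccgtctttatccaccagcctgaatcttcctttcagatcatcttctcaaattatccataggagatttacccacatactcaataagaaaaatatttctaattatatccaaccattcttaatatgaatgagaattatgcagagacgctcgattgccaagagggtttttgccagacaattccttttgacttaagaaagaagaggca
*Myh7*, chr14:55232084-55232333, minus strand: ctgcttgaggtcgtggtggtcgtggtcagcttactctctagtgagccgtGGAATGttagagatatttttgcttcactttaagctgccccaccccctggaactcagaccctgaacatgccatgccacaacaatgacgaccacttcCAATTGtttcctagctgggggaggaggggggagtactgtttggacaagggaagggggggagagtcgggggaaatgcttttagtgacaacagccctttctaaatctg
*Acta1*, chr8:124621687-124621936, minus strand: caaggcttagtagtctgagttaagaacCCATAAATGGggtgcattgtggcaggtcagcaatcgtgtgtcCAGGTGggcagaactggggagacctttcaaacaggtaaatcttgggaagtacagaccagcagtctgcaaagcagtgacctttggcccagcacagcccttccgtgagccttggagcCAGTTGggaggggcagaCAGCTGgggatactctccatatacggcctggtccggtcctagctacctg
*Myh7* held 1 CANNTG and 1 CATTCC match, and *Acta1* a CArG box with 3 CANNTG matches, 1 of them CAGCTG. *Myh2* held none of these letters in this window.

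Windows of 250 bases were read for 41 of the 42 genes, all but *Myh3*, and for 14133 other genes that passed the count filter. The 41 include *Myh2*, *Myh8*, *Myl2*, *Myl3* and *Ckmt2*, which did not pass it. Each window lies before the protein-coding transcript with the highest TPM summed over the 6 pools. Its start can lie inside the gene, as for *Neb-205* at chr2:52066626 in *Neb* (chr2:52026659-52268486, minus strand). A MEF2 site stood in 7 (17.1%) of the 41 and in 2.06% of the others, and a CArG box in 3 (7.32%) of the 41 and in 1.1% of the others. The 7 with a MEF2 site were *Casq1*, *Myh8*, *Myl1*, *Myoz1*, *Pvalb*, *Xirp1* and *Xirp2*, of which 4 are fast genes and none is a slow gene. CAGCTG stood in 19.5% of the muscle genes and 11.3% of the others, CANNTG in 78% and 60.9%, CATTCC in 14.6% and 11.6%, and TATAAA in 12.2% and 7.67%. Of the 15 fast and 7 slow genes, CATTCC stood in 1 fast and 3 slow genes. A CArG box stood in 0 fast genes and 1 slow gene. CAGCTG stood in 2 fast and 2 slow genes, CANNTG in 12 and 6, and TATAAA in 2 and 0. A match is a run of letters and not a shown site.

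The light chains, which bind the neck of the heavy chain, also set F2 and M1 apart. For the fast light chains, however, M1 was the second highest pool, whereas it was the second lowest for *Myh4*. *Mylpf*, the fast regulatory light chain, had 2.61 TPM in F1, 395 in F2, 7.49 in F3, 13.4 in M1, 9.30 in M2 and 8.71 in M3. *Myl2*, the slow and ventricular regulatory light chain, had 1.06 TPM in F1, 0.484 in F2, 0.844 in F3, 16.5 in M1, 1.52 in M2 and 0.39 in M3. *Myl2* was thus clearly highest in M1 and among the lowest in F2. *Myl1*, the fast alkali light chain, had 2.66 TPM in F1, 377 in F2, 7.98 in F3, 17.5 in M1, 9.91 in M2 and 7.00 in M3. *Myl3*, its slow and ventricular counterpart, had 0.335 TPM in F1, 0 in F2, 0.306 in F3, 15 in M1, 1.39 in M2 and 0.153 in M3. With 0 reads in F2 and a floor of 3 reads, *Myl3* was at least 130-fold higher in M1. *Myl1* makes a long and a short chain from different starts: the short form of 150 codons (*Myl1-202*) had 292.5 TPM in F2 and 12.5 TPM in M1, and the long form of 188 codons (*Myl1-201*) 58.6 TPM in F2 and 2.96 TPM in M1. The short form held 68.4% to 77.6% of *Myl1* TPM in all 6 pools, so its share differed little between pools.

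*Mybpc2*, the fast myosin-binding protein C, stood highest above the other pools in F2. It had 0.0797 TPM in F1, 59.0 in F2, 0.791 in F3, 0.274 in M1, 0.756 in M2 and 0.592 in M3, which put F2 at 99.7 times the median of the other 5. The next ratios belonged to *Myh4* (95), *Atp2a1* (89.1), *Xirp2* (80.1) and *Acta1* (78.8). *Mybpc1*, the paralog used in slow and in some fast fibres, had 0.362 TPM in F1, 4.03 in F2, 0.0898 in F3, 5.35 in M1, 0.302 in M2 and 0.0842 in M3. It was described because its values turned out to differ from those of *Mybpc2*. *Mylk2*, the kinase of the regulatory light chain, had 9.39 TPM in F2 and 0.0671 to 0.478 TPM elsewhere.

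On the thin filament, *Acta1*, the skeletal alpha-actin, had the highest TPM of the 42 genes in F2 and M1. It had 2.11 TPM in F1, 739 in F2, 9.38 in F3, 91.7 in M1, 16.3 in M2 and 8.69 in M3. F2 was the highest pool and M1 came next. M1 exceeded F1, F3, M2 and M3 for all 18 genes shared by fast and slow fibres. *Neb*, which spans the thin filament, and *Nrap*, which takes part in myofibril assembly, had 46.3 and 13.7 TPM in F2 and 4.78 and 2.91 TPM in M1, and at most 1.70 TPM in the other pools.

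The troponins sense calcium through a C subunit, inhibit through an I subunit and anchor to tropomyosin through a T subunit, each with a fast and a slow gene. *Tnnc2*, the fast C subunit, had 0.515 TPM in F1, 384 in F2, 6.06 in F3, 24.8 in M1, 7.39 in M2 and 5.19 in M3. *Tnnc1*, the slow and cardiac C subunit, had 8.24 TPM in F1, 4.11 in F2, 2.31 in F3, 12.8 in M1, 3.52 in M2 and 4.31 in M3. *Tnnc1* was thus highest in M1 and next highest in F1, the pool lowest for *Tnnc2*. *Tnni2*, the fast I subunit, had 2.65 TPM in F1, 277 in F2, 6.77 in F3, 21.8 in M1, 10.3 in M2 and 9.22 in M3. *Tnni1*, the slow I subunit, had 6.76 TPM in F1, 5.60 in F2, 3.09 in F3, 8.80 in M1, 5.79 in M2 and 6.54 in M3. The levels of *Tnni1* lay within 2.85-fold of each other over all pools, against 105-fold for *Tnni2*. *Tnnt3*, the fast T subunit, had 6.24 TPM in F1, 508 in F2, 15.5 in F3, 34.0 in M1, 14 in M2 and 11.6 in M3. *Tnnt1*, the slow T subunit, had 2.63 TPM in F1, 2.41 in F2, 4.25 in F3, 10.7 in M1, 3.82 in M2 and 3.00 in M3. *Tnnt1* was highest in M1, and F2 was the lowest pool.

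As a share of each slow and fast pair, the slow gene was lowest in F2 in all 7 pairs compared. *Myh7* held 0% of its pair with *Myh4* in F2, 88.7% in M1, 54.0% in F1 and 0.323% to 10.1% in F3, M2 and M3. *Myl3* held 0% of its pair with *Myl1* in F2, 46.2% in M1 and 2.14% to 12.3% elsewhere, and *Myl2* held 0.122% of its pair with *Mylpf* in F2, 55.2% in M1 and 4.28% to 28.8% elsewhere. For these 3 pairs M1 had the highest slow share. The troponin pairs gave a different order, since the slow troponins had a level in every pool: *Tnnt1* held 24.0% of its pair in M1 and 20.5% to 29.7% in the pools other than F2, with F1 highest, as it was for *Tnni1* (71.9%), *Tnnc1* (94.1%) and *Casq2* (55.8%). The pairs therefore gave no common estimate of fibre type for F1. Outside F2 the share of *Casq2* in its pair with *Casq1* cannot be read as fibre type, since both levels were nearly constant there.

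**Figure D3:**
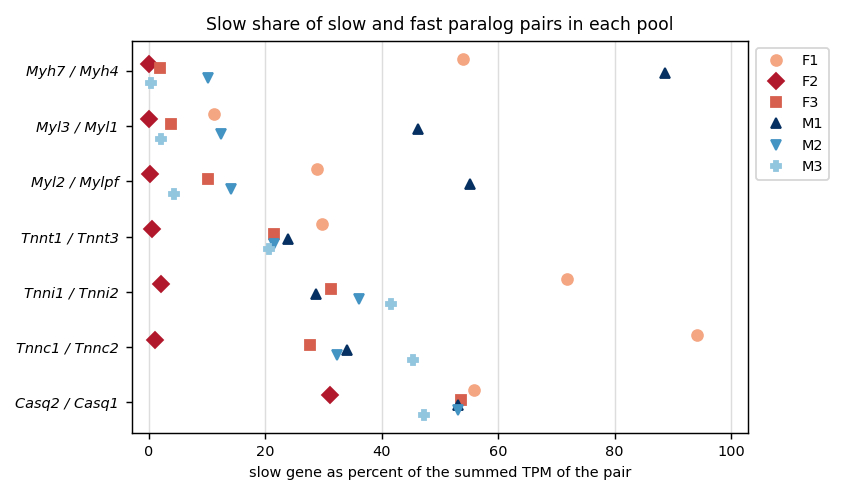
TPM of the slow gene as percent of the summed TPM of each slow and fast pair, 1 symbol per pool (F, female; M, male). F2 (diamonds) is lowest in all 7 pairs, and M1 (dark triangles) is highest for the 3 myosin pairs but not for troponins or calsequestrins.

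The splice forms of *Tnnt3* separated M1 from the other 5 pools as well. *Tnnt3* lies at chr7:142048605-142070280 on the plus strand (GRCm39). Among exons of its coding part that differed between pools were 3 short exons and a pair of mutually exclusive 41-base exons. They are printed with 6 intron bases on each side, in lower case, and the exon in capitals.
18-base exon, chr7:142056477-142056494: atgcagAACAATACGAAGAGGAAGgtaact
12-base exon, chr7:142059025-142059036: ccttagCCCCCGAACCAGgtaggt
15-base exon, chr7:142059253-142059267: ccacagAGGAAGTCCAAGAAGgtaggt
First 41-base exon, chr7:142067402-142067442: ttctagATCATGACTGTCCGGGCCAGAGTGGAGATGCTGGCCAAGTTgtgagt
Last 41-base exon, chr7:142068063-142068103: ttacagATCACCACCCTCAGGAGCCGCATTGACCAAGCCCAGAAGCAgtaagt
Shares are of the TPM of protein-coding *Tnnt3* transcripts that span the exon, without retained-intron transcripts. Transcripts with the 15-base exon held 23.7% in F1, 6.54% in F2, 1.91% in F3, 84.5% in M1, 12.1% in M2 and 3.27% in M3. Those with the 18-base exon held 23.7% in F1, 31.9% in F2, 25.9% in F3, 90.8% in M1, 31.6% in M2 and 24.5% in M3. The 12-base exon was the other way round, with 93.4% in F1, 96.7% in F2, 96.8% in F3, 38.6% in M1, 90.5% in M2 and 99.0% in M3. M1 thus stood apart from the other 5 pools at all 3 exons, and F2, with 21638 reads, lay close to F3, M2 and M3. The first 41-base exon held 8.76% in F1, 29.6% in F2, 27.2% in F3, 7.16% in M1, 21.0% in M2 and 22.2% in M3, and the last 41-base exon the remainder. Here F1, with 206 reads, was near M1. A 39-base exon, not printed, held 8.76% in F1, 0.749% in F2, 0% in F3, 3.98% in M1, 2.39% in M2 and 0.480% in M3. At that exon F1 was highest and M1 did not stand apart. The shares rest on 21 transcripts that overlap strongly, among which the quantification divides the reads, and no interval can be given for them.

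Among Z-disc and M-band genes, *Actn3*, the alpha-actinin of fast fibres, had 0.789 TPM in F1, 108 in F2, 2.97 in F3, 1.5 in M1, 2.34 in M2 and 2.24 in M3. *Actn2*, the form of slow and fast fibres, had 0.0975 TPM in F1, 3.15 in F2, 0.127 in F3, 4.78 in M1, 0.405 in M2 and 0.248 in M3. *Actn2* held 76.1% of this pair in M1 and 2.83% to 14.7% in the other pools, a pair added after the values were seen. *Myoz1*, a calcineurin-binding protein of fast fibres, had 0.699 TPM in F1, 44.6 in F2, 1.16 in F3, 3.65 in M1, 1.57 in M2 and 1.44 in M3. *Tcap*, which caps titin at the Z-disc, had 0.391 TPM in F1, 26.2 in F2, 0.604 in F3, 14.9 in M1, 2.49 in M2 and 0.623 in M3. F2 exceeded M1 by 12.2-fold for *Myoz1* but by 1.76-fold for *Tcap*. *Xirp2*, an actin-binding protein of the fibre's attachment sites, had 0.00999 TPM in F1, 10.3 in F2, 0.129 in F3, 0.705 in M1, 0.154 in M2 and 0.0623 in M3. *Ttn*, *Myom1*, *Myom2*, *Ldb3* and *Xirp1* were highest in F2, at 3.30 to 26.3 TPM, and second highest in M1, at 0.380 to 3.63 TPM.

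*Ckm*, the cytosolic creatine kinase that buffers ATP, had 0.608 TPM in F1, 395 in F2, 6.54 in F3, 20.7 in M1, 6.37 in M2 and 5.36 in M3. *Pvalb*, the calcium buffer of the fastest fibres, had 2.60 TPM in F1, 307 in F2, 7.30 in F3, 4.95 in M1, 7.20 in M2 and 6.21 in M3. M1, second highest for *Ckm*, was second lowest for *Pvalb*. *Mb*, the oxygen store of oxidative fibres, had 0.278 TPM in F1, 12.4 in F2, 0.354 in F3, 27.7 in M1, 1.74 in M2 and 0.271 in M3. *Ckmt2*, the mitochondrial creatine kinase of striated muscle, had 0 TPM in F1, 11.4 in F2, 0.157 in F3, 5.75 in M1, 0.448 in M2 and 0.0710 in M3. *Mb* was higher in M1 than in F2, and M2 came next for both genes.

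In excitation-contraction coupling, *Atp2a1*, the calcium pump of fast fibres (SERCA1), had 0.413 TPM in F1, 308 in F2, 3.46 in F3, 15.3 in M1, 3.98 in M2 and 3.40 in M3. *Casq1*, the calcium store of skeletal muscle, had 21.5 TPM in F1, 53.6 in F2, 23.0 in F3, 23.8 in M1, 21.5 in M2 and 23.9 in M3. *Casq2*, the slow and cardiac calsequestrin, had 27.2 TPM in F1, 24.3 in F2, 26.6 in F3, 26.9 in M1, 24.3 in M2 and 21.5 in M3. *Casq2* varied by only 1.27-fold over pools in which *Acta1* varied by 351-fold, and it was the most abundant of the 42 genes in F1, F3 and M2. *Ryr1* and *Trdn*, the release channel and its anchor to calsequestrin, had 10.6 and 11.4 TPM in F2, 1.22 and 1.01 TPM in M1 and 0.0430 to 0.473 TPM elsewhere. *Cacna1s* had 7.78 TPM in F2 and 1.02 to 1.80 TPM elsewhere.

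Transcripts divided several of these genes into a part that was far higher in F2 and a part that differed little. *Casq1-201* had 0.308 TPM in F1, 30.2 in F2, 0.795 in F3, 2.09 in M1, 1.06 in M2 and 0.669 in M3. *Casq1-202*, a retained-intron transcript with 5 exons at chr1:172037462-172041522, had 20.4 to 23.5 TPM in all 6 pools. The level of *Casq1* outside F2 was therefore almost wholly *Casq1-202*. *Gm17224* overlaps *Casq1* on the opposite strand, and whether the quantification used strand is not given in the sources used here. *Cacna1s-204* had 6.65 TPM in F2 and 0 to 0.361 TPM elsewhere, against 0.974 to 1.41 TPM in all pools for *Cacna1s-202*. *Myom1-203* had 9.91 TPM in F2, 1.53 in M1, 0.431 in M2 and 0 in the other pools, against 0.740 to 1.41 TPM for *Myom1-202*. *Pvalb-202* had 305.3 TPM in F2 and 0.971 to 6.38 TPM elsewhere, against 0.752 to 1.91 TPM for *Pvalb-201*. In each of these 4 genes, 1 transcript thus differed little between F2 and the other pools. F2 was 1.08 times the median of the other 5 for *Casq1-202* and 0.987 times for *Cacna1s-202*. It was 1.45 times that median for *Myom1-202* and 1.74 times for *Pvalb-201*, both highest in F2. An annotated gene lies antisense to 32 of the 42 genes, and for 11 of them, including *Tnnc1* (*Nisch*) and *Actn3* (*Ctsf*), the antisense gene itself passed the count filter.

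**Figure D4:**
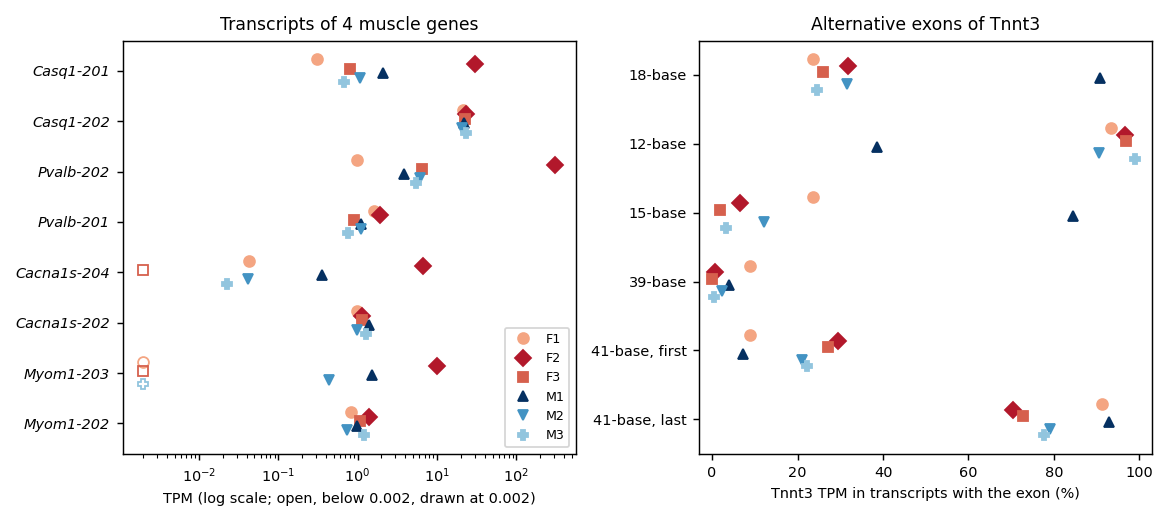
Left, TPM (log scale) of pairs of transcripts of *Casq1*, *Pvalb*, *Cacna1s* and *Myom1* in each pool (F, female; M, male), where 1 of each pair is far higher in F2 and the other differs little. Right, transcripts with each alternative exon as percent of the TPM of protein-coding *Tnnt3* transcripts that span it. M1 (dark triangles) stands apart at the 18-, 12- and 15-base exons.

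The only comparison in the design, female against male sham nerve, was tested over 16310 genes with the quasi-likelihood test of edgeR and Benjamini-Hochberg adjustment. Of the 42 genes, 36 passed the count filter, and *Myh2*, *Myh3*, *Myh8*, *Myl2*, *Myl3* and *Ckmt2* did not. None of the 36 was called at an adjusted p under 0.1 (0.0613% of all genes tested were), with adjusted p of 0.838 or more in edgeR. At an unadjusted p under 0.05 edgeR had 0 of the 36, and 997 of all 16310 genes. With limma voom (0.0674% of all genes called) 0 of them were called as well, with 0 at an unadjusted p under 0.05. DESeq2 (0.978% called) gave p-values for only 10 of the 36, with 0 called and 0 at an unadjusted p under 0.05. For the other 26, among them *Myh4*, *Actn3* and *Mybpc2*, it gave neither an unadjusted nor an adjusted p. The median log2 fold change, female over male, was 2.69 over the 36 genes and 0.00 over all genes. Of the 36, 29 had a positive and 7 a negative estimate. *Myh4* had the most positive estimate at 5.30 ± 2.90 (SE; adjusted p = 0.853 by edgeR) and *Myh7* the most negative at -4.58 ± 2.37 (SE; adjusted p = 0.845 by edgeR). The pools of the sexes overlapped for both genes.

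The sign of the comparison rested on F2. Without F2 the median was -1.05 over the 29 genes that then passed the filter, 28 of which had a negative estimate. Of these, edgeR called 0 (0.0494% of all genes were called). At an unadjusted p under 0.05 it had 2 of the 29, *Myom2* and *Myoz1*, and 651 of all 16197 genes. Without M1 the median was 3.67. Without both F2 and M1, a setting chosen after the data were seen, the median was -0.50 over 26 genes, 24 of them negative. Again 0 were called by edgeR (0.0188% of all genes were). At an unadjusted p under 0.05 it had 1 of the 26, *Myom2*, and 548 of all 15995 genes. *Acta1* had 2.73 ± 2.46 with all pools and -2.69 ± 1.39 without F2 (SE, log2, female over male). *Casq2*, which differed little between pools, had 0.08 ± 0.08 with all pools and 0.13 ± 0.09 without F2. The median of the 36 was also smaller with limma voom, at 0.52.

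**Figure D5:**
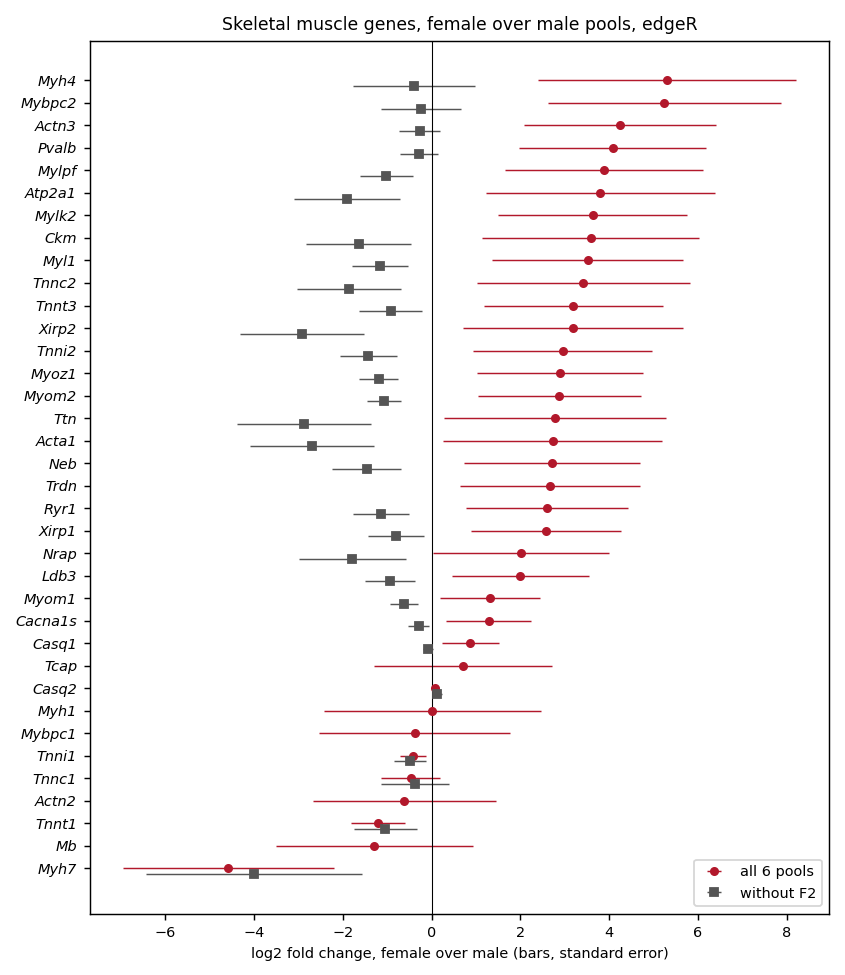
Log2 fold change, female over male, by edgeR, for the 36 genes tested with all 6 pools (circles) and for those tested without F2 (squares), with standard errors. With all pools 29 estimates are positive, and without F2 28 of 29 are negative.

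Other muscle genes, from lists outside the 42, showed how far the pattern of F2 reached. Of 12 glycolytic and other muscle enzymes that passed the count filter, 3 lay at least 10-fold above the median of the other pools in F2. The same held for 4 of 10 structural, 1 of 10 excitation and 2 of 4 denervation and repair genes. Over all 16310 genes kept, 0.349% lay that far above it. None of these lists had a gene called between the sexes, where 0.0613% of all genes were called. The genes named next had the highest TPM of their list summed over the 6 pools. Among enzymes, *Ldha* and *Slc25a4* had 630 and 272 TPM in F2 and 495 to 652 and 212 to 232 TPM elsewhere. Among structural genes, *Dmd* and *Klhl41* had 72.6 and 16.6 TPM in F2, against 56.2 to 76.6 and 0.852 to 2.95 TPM elsewhere. *Cacna2d1* and *Cacnb1*, calcium channel subunits that nerve also uses, had 10.7 and 7.45 TPM in F2, against 5.38 to 7.09 and 5.04 to 6.13 TPM elsewhere. *Runx1* had 15.5 TPM in F2 and 13.6 to 18.4 TPM elsewhere. *Trim63*, a ubiquitin ligase of the sarcomere, had 49.9 TPM in F2 and 0.287 to 2.11 TPM elsewhere. Among genes outside the 42 that passed the count filter and had at least 5 TPM in F2, its ratio of F2 to the median of the other pools (67.7) was the highest apart from *Xist* (a female transcript), and *Myot*, *Pgam2* and *Actc1* followed. Listed genes that did not pass the filter had higher ratios, such as *Myf6* (146) and *Scn4a* (102).

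Satellite cell markers were at or near 0, and some regulators of myogenesis were low but highest in F2. *Pax7* and *Myf5* had 0.0439 and 0.0225 TPM in F2 and at most 0.00333 TPM elsewhere, and *Mymk*, needed for myoblast fusion, was listed at 0 in all 6 pools. *Myod1* and *Myog*, regulators of myoblast differentiation, had 0.664 TPM (40 reads) and 0.558 TPM (28 reads) in F2, against 0 to 0.0159 and 0 to 0.0197 TPM elsewhere. *Myf6*, the regulator of mature fibres, had 23.0 TPM in F2 and 0 to 0.365 TPM elsewhere. *Mef2d* and *Mef2c*, the listed regulators with the highest TPM summed over pools, had 38.9 and 13 TPM in F2, against 30.9 to 35.6 and 10.1 to 15.7 TPM elsewhere. The summed TPM of 10 Schwann cell myelin genes was 40896 in F2 and 34445 to 43812 elsewhere, and that of 10 smooth muscle genes was 630 in F2 and 524 to 704 elsewhere. *Des*, a smooth muscle list gene for desmin, which striated muscle also uses, had 63.9 TPM in F2, 14.4 TPM in M1 and 6.21 to 8.12 TPM in the other pools. The adipocyte genes *Lep* and *Pck1* had 2.75 and 6.80 TPM in F2, against 0.453 to 1.94 and 2.22 to 9.44 TPM elsewhere. For 8 lists of other cell types (smooth and heart muscle, adipocytes, erythroid, Schwann and endothelial cells, fibroblasts and macrophages) the median ratio of F2 to the other pools was 0.578 to 1.19. Of 10 heart genes, *Myh6* and *Nppa* were at or below 0.0121 TPM in every pool, *Tnni3*, *Tnnt2* and *Myl4* had 3.87 to 5.90, 1.84 to 2.93 and 1.35 to 2.30 TPM over all pools, and *Actc1* had 20.9 TPM in F2 and at most 0.723 TPM elsewhere.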

How the data were processed

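Poly(A)-selected, strand-marking libraries of total RNA from sham-operated sciatic nerves were sequenced in pairs. Per the submitters' processing notes, reads were trimmed with Trimmomatic 0.39 and quantified with Salmon 1.5.2. The authors deposited 1 table per pool with estimated counts and TPM for each transcript (annotation on GRCm39). TPM was length-normalized by the authors, and TPM sums over a gene's transcripts compare genes per length. Gene coordinates were looked up by gene ID in GENCODE M39 (42 of 42 genes matched), whose build is the same; promoters and exons were read from GRCm39.

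Estimated counts were summed per gene and rounded. Genes reaching 0.5 CPM in 3 or more pools were tested with edgeR 4.0.16 (TMM, robust quasi-likelihood) in R 4.3.3, female over male, adjusted p under 0.1. Alternatives were DESeq2 1.42.0, limma 3.58.1 voom, RLE factors, other filters, a replicate block, adjusted p under 0.05 and leaving out pools. Levels, shares and ratios of the 42 genes were described without a test, in Python 3.11.15. Floors of 3 reads and Wilson 95% intervals cover counting error only, since reads without molecular identifiers are not independent molecules. Chi-square per gene between pools of a sex was 25.4 to 68.8, so no pair of pools of a sex agreed within sampling noise. The labels number the pools but do not say how animals were assigned, and p-values measure the spread between pools.

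The 42 genes and all lists were chosen with earlier results of these data known. Full values are given for the 3 most abundant genes of each role, each slow and fast pair, and the 5 highest and 5 lowest ratios of F2 to the median of the other 5 pools; other genes are given by range. Outside the 42, the 5 genes of highest F2 ratio among those that passed the count filter (F2 at least 5 TPM) and the 2 of each muscle list with the highest TPM summed over pools were named; others were chosen after their values were seen. Axotomized nerves were not analysed here, and a further promoter window is not reported here.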

Additional observations from a re-analysis of the deposited data

How the results depend on the processing

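The call of 0 of the 42 muscle genes between female and male pools held in all 14 alternatives run, among which the number of those genes tested varied. Over all genes, 10 were called by edgeR, 159 by DESeq2, 49 without a filter, 3 to 8 when 1 pool was left out (3 without M1, 4 without F1 and 4 without M2), and 3 without F2 and M1, a setting added after the data were seen; the cause was not tested. The median log2 fold change of the muscle genes was 2.69 in the reported fit, 0.52 with limma voom, -1.05 to 3.67 when 1 pool was left out (-1.05 without F2), and -0.50 without F2 and M1. With the replicate number as a block, 5 genes were called and the median was 0.57. The labels do not say whether pools of the same number belong together. Correlations of deviations between pools of the same number were -0.17, -0.12 and -0.09, and between pools of unlike number -0.06 to 0.19. With 3 pools per sex, these values cannot decide whether the numbers pair the pools. Mean summed TPM was 1589 in female and 257 in male pools, and 122 in female pools without F2 and 155 in male pools without M1. Slow genes with few reads in F2 limit any statement on its slow fibres to the floors given.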

Other observations

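Some muscle genes outside the 42 were highest in M1. Those given here were chosen after their values were seen, and none passed the count filter. *Myoz2*, a Z-disc protein of slow fibres, had 0.0815 TPM in F1, 0.203 in F2, 0.0862 in F3, 4.18 in M1, 0.249 in M2 and 0.0240 in M3. *Sln*, sarcolipin, which inhibits the calcium pump, had 0 TPM in F1, 0.0283 in F2, 0.0240 in F3, 0.731 in M1, 0.124 in M2 and 0 in M3. Both were highest in M1 and next highest in M2. *Csrp3*, a muscle LIM protein, had 1.44 TPM in F2, 1.87 TPM in M1 and 0 to 0.181 TPM in the other pools. *Lmod2* had 0.534 TPM in F2, 1.07 TPM in M1 and 0 to 0.156 TPM in the other pools. Not all muscle genes raised in M1 were highest there: *Cox6a2* and *Cox8b* had 36.2 and 34.9 TPM in F2, against 9.22 and 13.9 TPM in M1.

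Some genes were high in F2 and not in M1. *Ankrd1*, a stretch-responsive protein of striated muscle, had 1.41 TPM in F1, 24.9 in F2, 0.427 in F3, 0.575 in M1, 0.447 in M2 and 0.478 in M3. *Actc1*, the cardiac alpha-actin, had 0.0422 TPM in F1, 20.9 in F2, 0.634 in F3, 0.217 in M1, 0.723 in M2 and 0.395 in M3. *Fbp2*, the muscle fructose bisphosphatase, had 4.03 TPM in F2 and 0.0303 to 0.106 TPM elsewhere. For *Ankrd1* and *Actc1* M1 lay within the range of the other 4 pools.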
